A study of Mus musculus with 36 samples.

Results

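The genes described here encode the presynaptic machinery that docks, primes and fuses synaptic vesicles in cortical neurons of the mouse. They were taken by symbol from a list of 35 genes, with no threshold on a measured value but with earlier results of these data known, and all 35 were found in the RNA-seq table of 26709 Ensembl genes through the gene names deposited with it. All 35 passed the filter on low values (a mean normalised read count of at least 10 over the 18 RNA libraries), which left 16209 genes tested.

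Primary cortical neurons were prepared from embryonic day 15 CD-1 mouse cortices, the tissue of all embryos being dissociated together, and were kept for 7 days in vitro. Network activity was first held down over 2 h by 1 µM TTX, which blocks sodium channels, together with 100 µM AP-5, which blocks NMDA receptors, and the cultures then received 10 ng/ml BDNF or 55 mM KCl for 1 h, 6 h or 10 h. Controls had AP-5 and TTX alone for 3 h, 8 h or 12 h in all, so that every culture of the study was silenced pharmacologically before RNA-seq and ATAC-seq. Each of the 9 groups had 2 libraries per assay, called A and B after the letters of the table columns, and the 6 controls formed 1 level in the tests. The study calls the libraries of a group biological replicates. The labels number them without naming separate cultures or dissections, so the p-values measure the spread between these libraries. The silenced control is a culture with little network activity and not an untreated culture.

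Synaptic vesicles fuse when SNARE proteins on the vesicle (synaptobrevins) and on the plasma membrane (syntaxin and SNAP-25) zip together, a step that synaptotagmins couple to calcium. Munc13 proteins and RIMs prime vesicles at the active zone, complexins bind the assembling SNARE complex, and tomosyns occupy syntaxin and hold fusion back. Synapsins tether vesicles in reserve, SV2 proteins and synaptophysin are abundant vesicle membrane proteins, and vesicular glutamate transporters fill the vesicle with transmitter.

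RNA libraries held 8.51 to 36.7 M reads in genes (M, 1e6 reads; median 11.6 M) and ATAC-seq libraries 1.24 to 6.24 M reads in peaks (median 3.55 M). The summed normalised read counts of 7 activity genes (Fos, Arc, Egr1, Npas4, Nr4a1, Bdnf and Vgf) lay between 691 and 1016 in the controls and between 10342 and 38010 in the stimulated libraries. The neuron markers summed to 67571 to 75195 in the controls, 61367 to 74522 with BDNF and 58169 to 77345 with KCl. With BDNF, 2 of the 7 neuron markers were higher and 1 lower at 1 h. The split was 1 and 5 at 6 h and 1 and 4 at 10 h. With KCl, 4 were higher and 1 lower at 1 h, and 2 and 3 at each later time. Microglia markers summed to at most 117 in any library. The 2 RNA libraries of KCl 6 h differed from each other more than any other pair, with a chi-square per degree of freedom over genes of 39.6 beside 2.44 to 10.4, and in library B the gene Gm42418 took 3.26% of the reads. Values at that time depended on the library kept. Without KCl 6 h library A, the log2 fold change against controls moved from 0.23 to 0.022 for Syt1 and from -0.063 to -0.35 for Rims2. Without library B it moved from 0.17 to 0.43 for Bsn and from 0.11 to 0.27 for Rims1. Calls of Cplx1, Syt7, Syt17, Rph3a, Pclo and Slc17a7 also changed without 1 of these libraries. Besides those of neurons, marker sums for other cells also moved with the stimuli. GABAergic neuron markers summed to 10398 to 12186 in the controls, 12622 to 14712 with BDNF and 12752 to 15379 with KCl, above the controls in every stimulated library. Gad1, Gad2 and Slc32a1 made up that rise with BDNF, while the mean of Dlx1 was 4655 in the controls, 4323 at 6 h of BDNF and 3480 at 6 h of KCl, where it was called lower. Of 5 astrocyte markers tested, 5 were lower at 6 h of either stimulus, and 3 to 5 of 5 markers of dividing cells were lower at 6 h and 10 h. In bulk RNA, fewer cells of a type and less RNA per cell cannot be told apart, and the part of these shifts in the results below was not tested.

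KCl moved more of the vesicle release genes than BDNF at every time, and at 1 h nearly all of the called genes were higher (adjusted p under 0.1, limma on the log2 of the normalised read count plus 1). With KCl, 23 of the 35 genes were higher and 2 lower at 1 h, 18 higher and 8 lower at 6 h, and 20 higher and 7 lower at 10 h. With BDNF, 9 were higher and 2 lower at 1 h, 11 higher and 10 lower at 6 h, and 7 higher and 11 lower at 10 h. The share of all genes gives the scale for these counts. KCl called 26.5% of all genes tested higher and 28.2% lower at 1 h, 33.4% of all genes tested higher and 33.1% lower at 6 h, and 29% of all genes tested higher and 28.2% lower at 10 h. BDNF called 21.3% of all genes tested higher and 19% lower at 1 h, 22.1% of all genes tested higher and 21.1% lower at 6 h, and 21.1% of all genes tested higher and 19.5% lower at 10 h. The median log2 fold change of the 35 genes was 0.24, 0.23 and 0.22 after 1 h, 6 h and 10 h of KCl and 0.11, 0.031 and 0.030 after BDNF, beside medians over all genes tested that stayed within 0.01 of 0. The 35 genes also shifted together between the libraries of a group. Their median log2 ratio of library A over B was 0.25 in KCl 6 h, 0.17 in control 6 h and -0.17 in control 10 h. In the other groups it lay between -0.048 and 0.14. The part of such shifts in the medians and counts against controls was not tested. Rims2 and Syn1 were called in no comparison with controls, and Slc17a6, Sv2c and Syp were called higher in all 6. How many of all genes share these patterns was not counted. Of the 128 calls over the 210 tests, 78 held under each alternative scaling, filter, tool and choice of controls and without any 1 library, and a call named below that did not is marked as such. With 1 library left in a stimulated group, or with fewer controls, the standard error is wider. A call can then be lost while the fold change stays the same. The count at 1 h of BDNF fell from 11 to 7 without BDNF 1 h library A and to 6 without library B, the count at 10 h of BDNF from 18 to 11 without BDNF 10 h library B, and the count at 1 h of KCl from 25 to 14 without KCl 1 h library A.

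**Figure D1:**
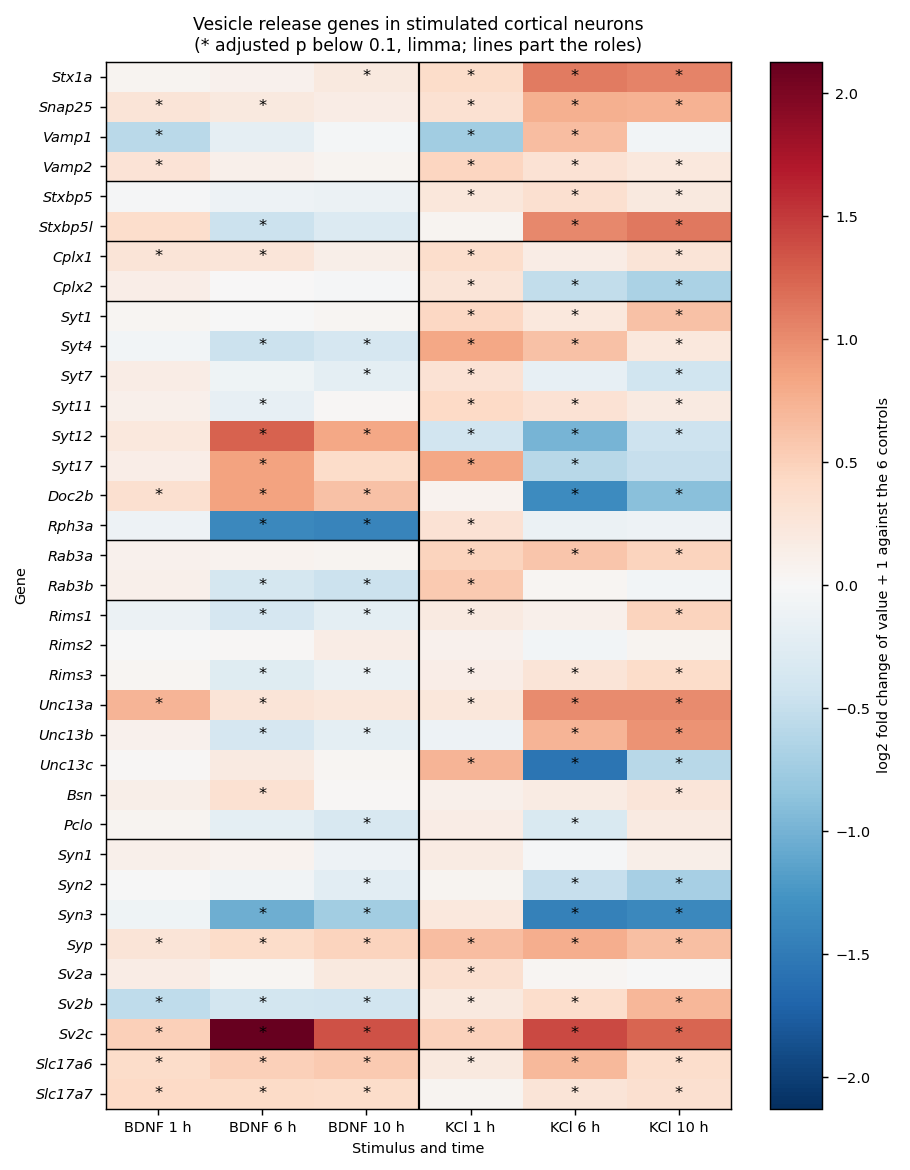
Log2 fold change of each of the 35 vesicle release genes (rows, grouped by role) against the 6 controls after 1 h, 6 h and 10 h of BDNF or KCl (columns), with red for higher, blue for lower and an asterisk for an adjusted p under 0.1. The KCl 1 h column holds 23 rises and 2 falls, and the colours of Syt12 and Doc2b at 6 h are red with BDNF and blue with KCl.

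All 4 SNARE genes rose at 6 h of KCl, when the plasma membrane partners Stx1a and Snap25 rose furthest, whereas at 1 h Vamp2 rose furthest and Vamp1 fell. Stx1a (syntaxin 1A, ENSMUSG00000007207, chr5:135023482-135051100, plus strand) had normalised read counts of 965, 1059 and 1242 in the lowest, median and highest control, and 1403 and 1379 after 1 h, 2458 and 2139 after 6 h, and 2347 and 2073 after 10 h of KCl. All 6 KCl libraries lay above all 6 controls. The log2 fold change was 0.39 (SE 0.079, adjusted p = 0.000338) at 1 h, 1.11 (SE 0.079, adjusted p = 1.32e-10) at 6 h and 1.05 (SE 0.079, adjusted p = 5.7e-10) at 10 h. With BDNF the Stx1a counts were 1095 and 1109 after 1 h, 1150.3 and 1129 after 6 h, and 1204 and 1263 after 10 h, which overlapped the controls at every time, and the rise of 0.21 (adjusted p = 0.0433) at 10 h was not retained without either BDNF 10 h library (0.25, adjusted p = 0.108, without A, and 0.18, adjusted p = 0.279, without B). Snap25, the second plasma membrane SNARE, was 3605 ± 9.47 (SD, n = 2) at 6 h of KCl and 2137 ± 211 (SD, n = 6) in the controls, a log2 difference of 0.76 (SE 0.084, adjusted p = 9.6e-08), and it stayed at 0.74 at 10 h. Vamp2, the main synaptobrevin of the forebrain, rose by less, with 0.46 (adjusted p = 2.45e-05) at 1 h and 0.31 (adjusted p = 0.000872) at 6 h of KCl and 0.29 (adjusted p = 0.00369) at 1 h of BDNF.

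Vamp1, the other synaptobrevin, went the opposite way early. Its counts were 155, 174 and 184 in the lowest, median and highest control, 122 and 107 after 1 h, 156 and 145 after 6 h, and 165 and 166 after 10 h of BDNF, and 104 and 99.4 after 1 h, 273 and 266 after 6 h, and 172 and 157 after 10 h of KCl. The 4 libraries at 1 h of either stimulus were below every control, and the pair at 6 h of KCl was above every control. Vamp1 fell by 0.58 (SE 0.10, adjusted p = 0.000121) with BDNF and by 0.75 (SE 0.10, adjusted p = 3.1e-06) with KCl at 1 h, and rose by 0.65 (SE 0.10, adjusted p = 1.09e-05) at 6 h of KCl. At 10 h the differences were -0.045 (adjusted p = 0.768) and -0.057 (adjusted p = 0.673), neither of which passed the test. Within KCl, the difference from 1 h to 6 h was 1.40 (SE 0.13, adjusted p = 8.25e-09) and that from 6 h to 10 h was -0.71 (SE 0.13, adjusted p = 0.000816).

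The tomosyns Stxbp5 and Stxbp5l, which bind syntaxin in place of synaptobrevin, were both higher at 6 h of KCl. Stxbp5l counts were low, at 54.2, 70.2 and 96.0 in the lowest, median and highest control, 88.2 and 94.6 after 1 h, 51.3 and 49.4 after 6 h, and 64.4 and 50.7 after 10 h of BDNF, and 74.1 and 71.6 after 1 h, 167 and 122 after 6 h, and 158 and 148 after 10 h of KCl. Both KCl libraries at 6 h and at 10 h exceeded the highest control, while the BDNF libraries at 6 h lay below the lowest. The rises were 1.02 (SE 0.18, adjusted p = 4.61e-05) and 1.12 (SE 0.18, adjusted p = 2.54e-05). The fall of -0.46 (adjusted p = 0.0484) at 6 h of BDNF was not retained without library A (-0.49, adjusted p = 0.166) or B (-0.44, adjusted p = 0.222) of that group. Stxbp5 differed by 0.34 (adjusted p = 0.00038) at 6 h of KCl, from 902 ± 67.7 (SD, n = 6) to 1144 ± 68.9 (SD, n = 2), and by -0.10 (adjusted p = 0.312) at 6 h of BDNF, which did not pass. Control 10 h library A held the lowest control value of Stxbp5. Without it the BDNF values passed, with -0.14 (adjusted p = 0.0878) at 6 h and -0.17 (adjusted p = 0.0452) at 10 h.

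The complexins parted under KCl. Cplx1 was higher at 1 h (0.38 (adjusted p = 0.00266)) and at 10 h (0.28), where the call did not hold in every alternative. Cplx2 was higher at 1 h (0.28 (adjusted p = 0.00757)) and then lower at 6 h (-0.53 (adjusted p = 8.37e-06)) and 10 h (-0.67 (adjusted p = 6.8e-07)). Cplx2 counts moved from 3886 ± 313 (SD, n = 6) in the controls to 4692 ± 5.44 (SD, n = 2) at 1 h, 2695 ± 346 at 6 h and 2442 ± 217 at 10 h of KCl. With BDNF, Cplx2 differed from the controls by at most 0.13 and passed the test at no time. Cplx1 was 0.28 (adjusted p = 0.0302) at 1 h of BDNF, a call not retained without either BDNF 1 h library (0.28 without A and 0.28 without B). Its value of 0.25 (adjusted p = 0.0464) at 6 h of BDNF was not retained without either BDNF 6 h library (0.19 without A and 0.30 without B).

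Among the synaptotagmins and the other C2 domain proteins, log2 fold changes at 6 h ran from -1.37 (Rph3a) to 1.25 (Syt12) with BDNF and from -1.34 (Doc2b) to 0.62 (Syt4) with KCl. Syt1, the fast calcium sensor of evoked release, was 0.43 (adjusted p = 0.00088) at 1 h and 0.63 (adjusted p = 2.02e-05) at 10 h of KCl, and differed from the controls by at most 0.035 after BDNF. The KCl 6 h value of 0.23 (adjusted p = 0.0483) rested on library A, since it was 0.022, adjusted p = 0.871, without it. Syt7, a slower sensor with high calcium affinity, was 0.31 (adjusted p = 0.0118) at 1 h of KCl and -0.43 (adjusted p = 0.00116) at 10 h. The 1 h call was not retained without KCl 1 h library A (0.27, adjusted p = 0.127). Syt11, a synaptotagmin that does not bind calcium and the member with the highest level per kilobase, rose by 0.43, 0.31 and 0.19 with KCl. Its 10 h call was not retained without KCl 10 h library A (0.14, adjusted p = 0.139).

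Syt4, a vesicle protein known as an activity-regulated gene, rose within 1 h of KCl and fell late with BDNF. Counts were 6152, 6874 and 7471 in the lowest, median and highest control, 6606 and 6552 after 1 h, 4959 and 5046 after 6 h, and 5198 and 5544 after 10 h of BDNF, and 13618 and 10798 after 1 h, 9939.9 and 11099 after 6 h, and 8063 and 7895 after 10 h of KCl. The 6 KCl libraries all lay above the controls, and the 4 late BDNF libraries all lay below them. The log2 difference was 0.82 (SE 0.080, adjusted p = 2.49e-08) at 1 h and 0.62 (SE 0.080, adjusted p = 1.06e-06) at 6 h of KCl, and -0.45 (SE 0.080, adjusted p = 0.000141) at 6 h and -0.35 (SE 0.080, adjusted p = 0.00201) at 10 h of BDNF.

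Syt12, a synaptotagmin that does not depend on calcium (ENSMUSG00000049303, chr19:4445908-4477447, minus strand), rose with BDNF and fell with KCl. Counts were 23.5, 27.5 and 29.7 in the lowest, median and highest control, 31.9 and 31.3 after 1 h, 64.9 and 65.9 after 6 h, and 51.99 and 44.7 after 10 h of BDNF, and 20.99 and 19.2 after 1 h, 14.7 and 11.6 after 6 h, and 19.6 and 19.6 after 10 h of KCl. The BDNF and KCl libraries lay on opposite sides of all 6 controls at every time. BDNF gave 1.25 (SE 0.19, adjusted p = 1.98e-05) at 6 h and 0.82 (SE 0.19, adjusted p = 0.00207) at 10 h, and KCl gave -0.99 (SE 0.19, adjusted p = 9.93e-05) at 6 h. The smaller KCl values at 1 h and 10 h, -0.41 (adjusted p = 0.0794) and -0.44 (adjusted p = 0.0542), lost their calls in several alternatives, such as without KCl 1 h library B (-0.35, adjusted p = 0.282) and without KCl 10 h library A (-0.44, adjusted p = 0.166). At 1 h the KCl call was also not retained without KCl 1 h library A (-0.47, adjusted p = 0.147), control 1 h libraries A (-0.40, adjusted p = 0.11) and B (-0.40, adjusted p = 0.103) or control 10 h library B (-0.38, adjusted p = 0.118), and at 10 h without KCl 10 h library B (-0.44, adjusted p = 0.17). The gene shares 614 bases with A930001C03Rik on the opposite strand, and whether the counting used strand is not given in the sources used here.

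Syt17, another member of low level, had counts of 14.4, 26.3 and 31.8 in the lowest, median and highest control, 25.9 and 29.0 after 1 h, 50.4 and 41.2 after 6 h, and 31.6 and 33.3 after 10 h of BDNF, and 44.5 and 43.8 after 1 h, 13.8 and 18.5 after 6 h, and 18.3 and 16.3 after 10 h of KCl. Both libraries at 1 h of KCl and at 6 h of BDNF exceeded every control. The differences were 0.82 (SE 0.24, adjusted p = 0.00817) at 1 h of KCl and 0.86 (adjusted p = 0.00824) at 6 h of BDNF. The BDNF call was not retained without BDNF 6 h library A (0.72, adjusted p = 0.132), the KCl 1 h call against controls of the same time alone (0.59, adjusted p = 0.108), and a KCl 6 h value of -0.60 (adjusted p = 0.0386) without KCl 6 h library A (-0.39, adjusted p = 0.303).

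Doc2b, a calcium sensor of high affinity linked to spontaneous and asynchronous release (ENSMUSG00000020848, chr11:75768966-75796049, minus strand), also moved in opposite directions. It had counts of 221, 254 and 276 in the lowest, median and highest control, 298 and 334 after 1 h, 451 and 452 after 6 h, and 410.3 and 356 after 10 h of BDNF, and 233 and 295 after 1 h, 122 and 77.6 after 6 h, and 148 and 119.8 after 10 h of KCl. All 6 BDNF libraries exceeded the controls, and the 4 late KCl libraries lay below them. BDNF differed from the controls by 0.86 (SE 0.14, adjusted p = 4.25e-05) at 6 h and 0.62 (SE 0.14, adjusted p = 0.00153) at 10 h, and KCl by -1.34 (SE 0.14, adjusted p = 3.39e-08) and -0.89 (SE 0.14, adjusted p = 1.53e-05). On the linear scale the 6 h levels were 1.82 (BDNF) and 0.394 (KCl) times that of the controls. The BDNF 1 h rise of 0.34 (adjusted p = 0.058) was not retained without either library of that group (0.43, adjusted p = 0.125, without A, and 0.26, adjusted p = 0.344, without B).

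Rph3a, rabphilin-3A, a Rab3 effector with C2 domains (ENSMUSG00000029608, chr5:120940499-121010092, minus strand), had the largest fall of the 35 genes with BDNF. Counts were 986, 1147 and 1319.7 in the lowest, median and highest control, 1023 and 1112 after 1 h, 480.1 and 412 after 6 h, and 519 and 368 after 10 h of BDNF, and 1445 and 1398 after 1 h, 1216 and 918 after 6 h, and 1105 and 1041 after 10 h of KCl. The 4 late BDNF libraries lay below every control, and of the late KCl libraries only the lower one at 6 h lay outside the range of the controls. Both libraries at 1 h of KCl exceeded every control, and the gene was called higher there, a call that did not hold in every alternative. BDNF lowered Rph3a by 1.37 (SE 0.13, adjusted p = 1.58e-07) at 6 h and 1.40 (SE 0.13, adjusted p = 2e-07) at 10 h, whereas the KCl values were -0.12 (adjusted p = 0.414) and -0.10 (adjusted p = 0.529), neither of which passed. Without KCl 6 h library A the 6 h value passed (-0.33, adjusted p = 0.0877).

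Of the Rab3 GTPases, which ride on vesicles and bind RIM and rabphilin, Rab3a rose with KCl by 0.47 (adjusted p = 3.35e-05), 0.59 (adjusted p = 1.27e-06) and 0.47 (adjusted p = 4.25e-05) at 1 h, 6 h and 10 h, and moved by at most 0.096 with BDNF. Rab3b counts were 284, 319 and 356 in the lowest, median and highest control, 344 and 339 after 1 h, 254 and 239 after 6 h, and 220.4 and 239.9 after 10 h of BDNF, and 489 and 444 after 1 h, 331 and 323 after 6 h, and 353 and 266 after 10 h of KCl. The late BDNF libraries lay below all controls and the KCl 1 h libraries above them. The differences were 0.55 (SE 0.10, adjusted p = 0.000119) at 1 h of KCl and -0.46 (SE 0.10, adjusted p = 0.00141) at 10 h of BDNF. The 6 h BDNF value of -0.37 (adjusted p = 0.00748) lost its call without BDNF 6 h library B (-0.32, adjusted p = 0.108).

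Among active zone and priming proteins, the 3 Munc13 genes had 3 different courses. Unc13a, the main priming factor of glutamatergic synapses (ENSMUSG00000034799, chr8:71624417-71671757, minus strand), had counts of 2277, 2604 and 2758 in the lowest, median and highest control, 4136 and 4343 after 1 h, 3195 and 3039 after 6 h, and 3261 and 2798 after 10 h of BDNF, and 3135 and 2905 after 1 h, 6234 and 4286 after 6 h, and 5709 and 4639 after 10 h of KCl. All 12 stimulated libraries exceeded the highest control. The rise was 0.73 (SE 0.11, adjusted p = 5.32e-05) at 1 h of BDNF, the largest of the 35 genes in that comparison, and 1.01 (SE 0.11, adjusted p = 3.77e-07) and 1.01 (SE 0.11, adjusted p = 7.5e-07) at 6 h and 10 h of KCl. The calls at 6 h of BDNF (0.28 (adjusted p = 0.0564)) and 1 h of KCl (0.24 (adjusted p = 0.0897)) were not retained without a library of their own groups (0.25, adjusted p = 0.275, without BDNF 6 h A, 0.32, adjusted p = 0.152, without BDNF 6 h B, 0.18, adjusted p = 0.383, without KCl 1 h A, and 0.29, adjusted p = 0.148, without KCl 1 h B). The KCl 1 h call was also not retained without control 1 h B (0.23, adjusted p = 0.124), control 6 h B (0.23, adjusted p = 0.127) or control 10 h A (0.20, adjusted p = 0.144). Unc13a shares 495 bases with Colgalt1 on the opposite strand, whose value was -0.28 at 1 h of BDNF and -0.46 at 6 h of KCl, lower in both.

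Unc13b was higher late with KCl (0.73 (SE 0.080, adjusted p = 8.5e-08) at 6 h and 0.96 (SE 0.080, adjusted p = 3.18e-09) at 10 h) and lower at 6 h of BDNF (-0.36 (SE 0.080, adjusted p = 0.00131)). Unc13c, the gene of lowest level per kilobase, had counts of 18.7, 26.4 and 32.4 in the lowest, median and highest control, 24.3 and 27.5 after 1 h, 26.1 and 32.02 after 6 h, and 23.7 and 28.8 after 10 h of BDNF, and 43.2 and 41.7 after 1 h, 10.8 and 5.79 after 6 h, and 14.7 and 18.5 after 10 h of KCl. The KCl libraries were above all controls at 1 h and below all of them at 6 h. The differences were 0.72 (SE 0.25, adjusted p = 0.0189) and -1.56 (SE 0.25, adjusted p = 1.23e-05). The 1 h call was not retained without KCl 1 h library A (0.70, adjusted p = 0.109), and the 10 h value of -0.59 (adjusted p = 0.0505) without KCl 10 h library A (-0.43, adjusted p = 0.308). BDNF moved Unc13c by at most 0.19, with no call.

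Of the RIM genes, Rims1 was lower at 6 h of BDNF (-0.36 (adjusted p = 0.00213)), a call not retained without BDNF 6 h library B (-0.26, adjusted p = 0.11), and higher at 10 h of KCl (0.48 (adjusted p = 8.11e-05)). Rims3 was lower at 6 h of BDNF (-0.26 (adjusted p = 0.00211)) and higher at 6 h and 10 h of KCl (0.27 (adjusted p = 0.000636) and 0.39 (adjusted p = 2.55e-05)). Rims2 stayed between -0.063 and 0.16 in all 6 comparisons, although without KCl 6 h library A the KCl 6 h value passed (-0.35, adjusted p = 0.0119). The large scaffolds Bsn and Pclo had few calls. Bsn was 0.32 (adjusted p = 0.0438) at 6 h of BDNF, not retained without either library of the group (0.35, adjusted p = 0.145, without A, and 0.30, adjusted p = 0.218, without B). Pclo was -0.33 (adjusted p = 0.0562) at 6 h of KCl, not retained without KCl 6 h library B (-0.12, adjusted p = 0.613), and -0.34 (adjusted p = 0.0764) at 10 h of BDNF, not retained without BDNF 10 h library B (-0.21, adjusted p = 0.482) or control 6 h library A (-0.32, adjusted p = 0.114).

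The vesicle membrane and tethering genes held the strongest response. Sv2c, a vesicle glycoprotein of low level in the controls (ENSMUSG00000051111, chr13:95954594-96132577, minus strand), had counts of 90.6, 132 and 145 in the lowest, median and highest control, 164 and 195 after 1 h, 563 and 541 after 6 h, and 324 and 324 after 10 h of BDNF, and 194 and 163 after 1 h, 356 and 315 after 6 h, and 298 and 299.5 after 10 h of KCl. Every stimulated library exceeded every control, and the 6 h BDNF libraries were the highest of all 18. The rises were 2.13 (SE 0.13, adjusted p = 6.07e-11) at 6 h and 1.36 (SE 0.13, adjusted p = 8.03e-08) at 10 h of BDNF, and 1.41 (SE 0.13, adjusted p = 8.43e-09) and 1.24 (SE 0.13, adjusted p = 1.1e-07) for KCl, so that the level at 6 h of BDNF was 4.37 times that of the controls. At 1 h the values were 0.51 (adjusted p = 0.00467) for BDNF and 0.50 (adjusted p = 0.00361) for KCl. These calls were not retained without BDNF 1 h library B (0.38, adjusted p = 0.127) and without KCl 1 h library A (0.37, adjusted p = 0.104).

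Sv2b had counts of 740.2, 843 and 905 in the lowest, median and highest control, 576 and 577 after 1 h, 648 and 629 after 6 h, and 641 and 621 after 10 h of BDNF, and 1014 and 926 after 1 h, 1199 and 986 after 6 h, and 1507 and 1240.5 after 10 h of KCl. All 6 BDNF libraries lay below the controls and all 6 KCl libraries above them. BDNF lowered it by 0.53 (SE 0.087, adjusted p = 4.76e-05) at 1 h, 0.39 (SE 0.087, adjusted p = 0.00134) at 6 h and 0.41 (SE 0.087, adjusted p = 0.00116) at 10 h, and KCl raised it by 0.38 (SE 0.087, adjusted p = 0.000686) at 6 h and 0.71 (SE 0.087, adjusted p = 7.37e-07) at 10 h. At 1 h of KCl the value was 0.21 (adjusted p = 0.0469), and the call was not retained without KCl 1 h library A (0.15, adjusted p = 0.336). Sv2a, the form found at most synapses and the target of levetiracetam, was called only at 1 h of KCl among the 6 comparisons (0.34 (adjusted p = 0.0123)), and not against controls of the same time (0.28, adjusted p = 0.129).

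Syn3, the synapsin of developing neurons, fell late with both stimuli. Counts were 255, 315 and 382 in the lowest, median and highest control, 271 and 325 after 1 h, 145 and 160.1 after 6 h, and 196 and 181 after 10 h of BDNF, and 369 and 372 after 1 h, 137 and 97.2 after 6 h, and 121 and 121 after 10 h of KCl. The 8 late libraries of both stimuli lay below every control. The log2 fold changes at 6 h and 10 h were -1.04 (SE 0.14, adjusted p = 6.73e-06) and -0.74 (SE 0.14, adjusted p = 0.000441) with BDNF and -1.44 (SE 0.14, adjusted p = 2.21e-08) and -1.38 (SE 0.14, adjusted p = 9.45e-08) with KCl. Syn3 encloses Timp3 on the opposite strand, with 1733 shared bases, and Timp3 was called in none of the 6 comparisons. Syn2 counts were 1754, 1951 and 2161 in the lowest, median and highest control and 2142 and 1923 after 1 h, 1445 and 1323 after 6 h, and 1217 and 1176 after 10 h of KCl. The late KCl libraries lay below the controls, with falls of 0.49 (SE 0.074, adjusted p = 6.84e-06) and 0.70 (SE 0.074, adjusted p = 1.06e-07). With BDNF the Syn2 counts were 2003 and 1845 after 1 h, 1848 and 1826 after 6 h, and 1709 and 1627 after 10 h, and the 10 h value of -0.22 (adjusted p = 0.0265) lost its call without BDNF 10 h library B (-0.18, adjusted p = 0.226). Syn1 stayed between -0.10 and 0.18 and was never called. Synaptophysin, Syp, rose by 0.65, 0.77 and 0.63 with KCl and by 0.28, 0.39 and 0.47 with BDNF at 1 h, 6 h and 10 h, and the call at 1 h of BDNF was not retained without either library of the group (0.30, adjusted p = 0.169, without A, and 0.26, adjusted p = 0.22, without B).

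**Figure D2:**
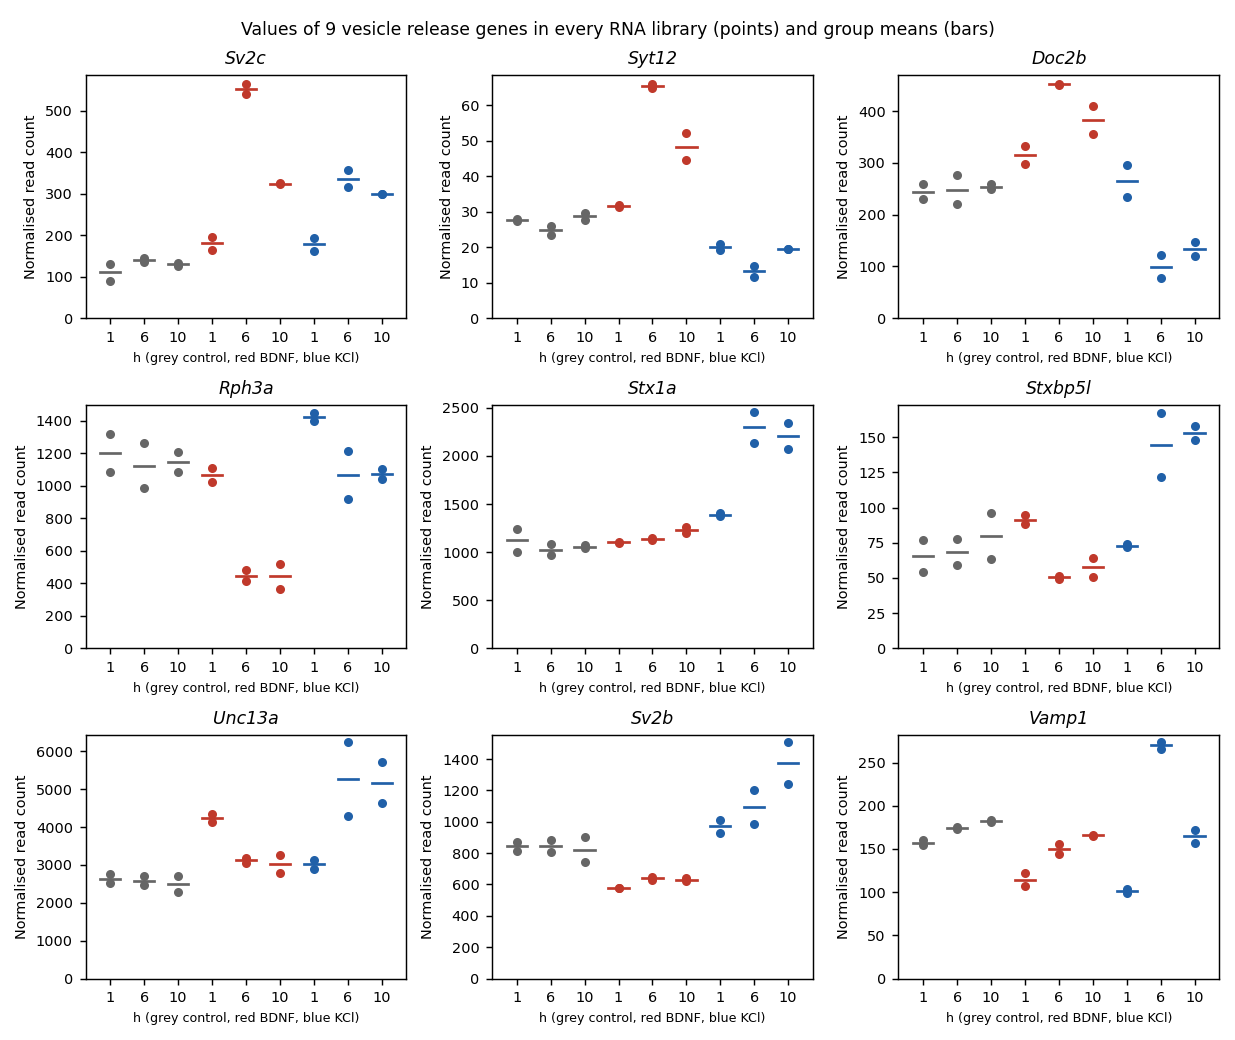
Normalised read counts (y axis, from 0) of 9 vesicle release genes in every RNA library (points) with group means (bars), by hours and with controls in grey, BDNF in red and KCl in blue. Sv2c peaks at 563 and 541 after 6 h of BDNF, and Syt12 and Doc2b rise in red and fall in blue. Rph3a is lowest in the late BDNF libraries, and Vamp1 dips at 1 h of both stimuli.

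Both vesicular glutamate transporters were higher at every time of BDNF. Slc17a6 (VGLUT2) rose with BDNF by 0.39 (adjusted p = 0.00178), 0.51 (adjusted p = 0.000109) and 0.55 (adjusted p = 6.99e-05) at 1 h, 6 h and 10 h, and with KCl by 0.69 (adjusted p = 8.23e-07) at 6 h. Its KCl 1 h call of 0.20 (adjusted p = 0.0662) rested on KCl 1 h library A, since the value was 0.000, adjusted p = 0.998, without it, and was also not retained without control 10 h library A (0.18, adjusted p = 0.111). Slc17a7 (VGLUT1) counts were 528, 627 and 691 in the lowest, median and highest control, 795 and 875 after 1 h, 829.6 and 816 after 6 h, and 889.5 and 744 after 10 h of BDNF, and 674 and 621 after 1 h, 815 and 683 after 6 h, and 944 and 653 after 10 h of KCl. All 6 BDNF libraries exceeded the controls, and the KCl libraries overlapped them. BDNF values were 0.43 (SE 0.12, adjusted p = 0.00658), 0.41 (SE 0.12, adjusted p = 0.00868) and 0.40 (SE 0.12, adjusted p = 0.0129). The 1 h call was not retained without BDNF 1 h library B (0.36, adjusted p = 0.107) and the 10 h call without BDNF 10 h library A (0.27, adjusted p = 0.226). The KCl calls at 6 h (0.27 (adjusted p = 0.0489)) and 10 h (0.34 (adjusted p = 0.0177)) rested on library A of each group (0.14, adjusted p = 0.44, without KCl 6 h A, and 0.080, adjusted p = 0.645, without KCl 10 h A). Markers of excitatory neurons summed to 8498 to 9659 in the controls, 7228 to 8559 with BDNF and 7813 to 9863 with KCl, ranges that overlap, and of the 5 markers 1 was higher and 2 lower at 6 h of BDNF and 3 higher and 1 lower at 6 h of KCl. Their part in the transporter values was not tested.

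The direct test of BDNF against KCl asks where the stimuli differ at the same time. BDNF libraries were higher than KCl libraries for 3 of the 35 genes and lower for 13 at 1 h (all genes, 24.6% of all genes tested higher and 18.2% lower), higher for 8 and lower for 17 at 6 h (all genes, 29.6% of all genes tested higher and 27.8% lower), and higher for 6 and lower for 16 at 10 h (all genes, 23.1% of all genes tested higher and 21.8% lower). The 1 h count fell from 16 to 9 without BDNF 1 h library A. The median difference of the 35 genes was -0.14, -0.21 and -0.16 on the log2 scale, beside medians of 0.0074, 0.0023 and 0.0012 over all genes. The C2 domain genes Syt12 and Doc2b were furthest to the BDNF side at 6 h, by 2.24 (SE 0.23, adjusted p = 5.97e-08) and 2.20 (SE 0.17, adjusted p = 9.86e-10), and again at 10 h, by 1.26 (SE 0.23, adjusted p = 0.00017) and 1.51 (SE 0.17, adjusted p = 4.03e-07). Unc13c (1.74 (adjusted p = 5.32e-05)) and Syt17 (1.46 (adjusted p = 0.000318)) followed them at 6 h.

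Other genes stood on the KCl side. Stxbp5l (-1.48 (SE 0.22, adjusted p = 8.78e-06)), Rph3a (-1.25 (SE 0.16, adjusted p = 3.05e-06)), Unc13b (-1.09 (SE 0.098, adjusted p = 9.61e-09)), Syt4 (-1.07 (SE 0.098, adjusted p = 1.46e-08)) and Stx1a (-1.01 (SE 0.097, adjusted p = 2.34e-08)) had the largest differences in that direction at 6 h. All 4 SNARE genes were lower with BDNF than with KCl at 6 h, although the smallest difference, that of Vamp2 (-0.21 (adjusted p = 0.0637)), was not retained without KCl 6 h library A (-0.14, adjusted p = 0.287), BDNF 6 h library A (-0.24, adjusted p = 0.101) or B (-0.17, adjusted p = 0.248). Sv2b differed at all 3 times, by -0.75, -0.77 and -1.12. Sv2c was higher with BDNF at 6 h (0.72 (adjusted p = 0.000818)) and differed by 0.12 (adjusted p = 0.604) at 10 h, which did not pass. Unc13a changed sides, from 0.49 (adjusted p = 0.00846) at 1 h to -0.73 (adjusted p = 0.000213) at 6 h. The comparisons of each stimulus with controls share the same 6 controls, so their values are given side by side above and were not counted against each other.

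**Figure D3:**
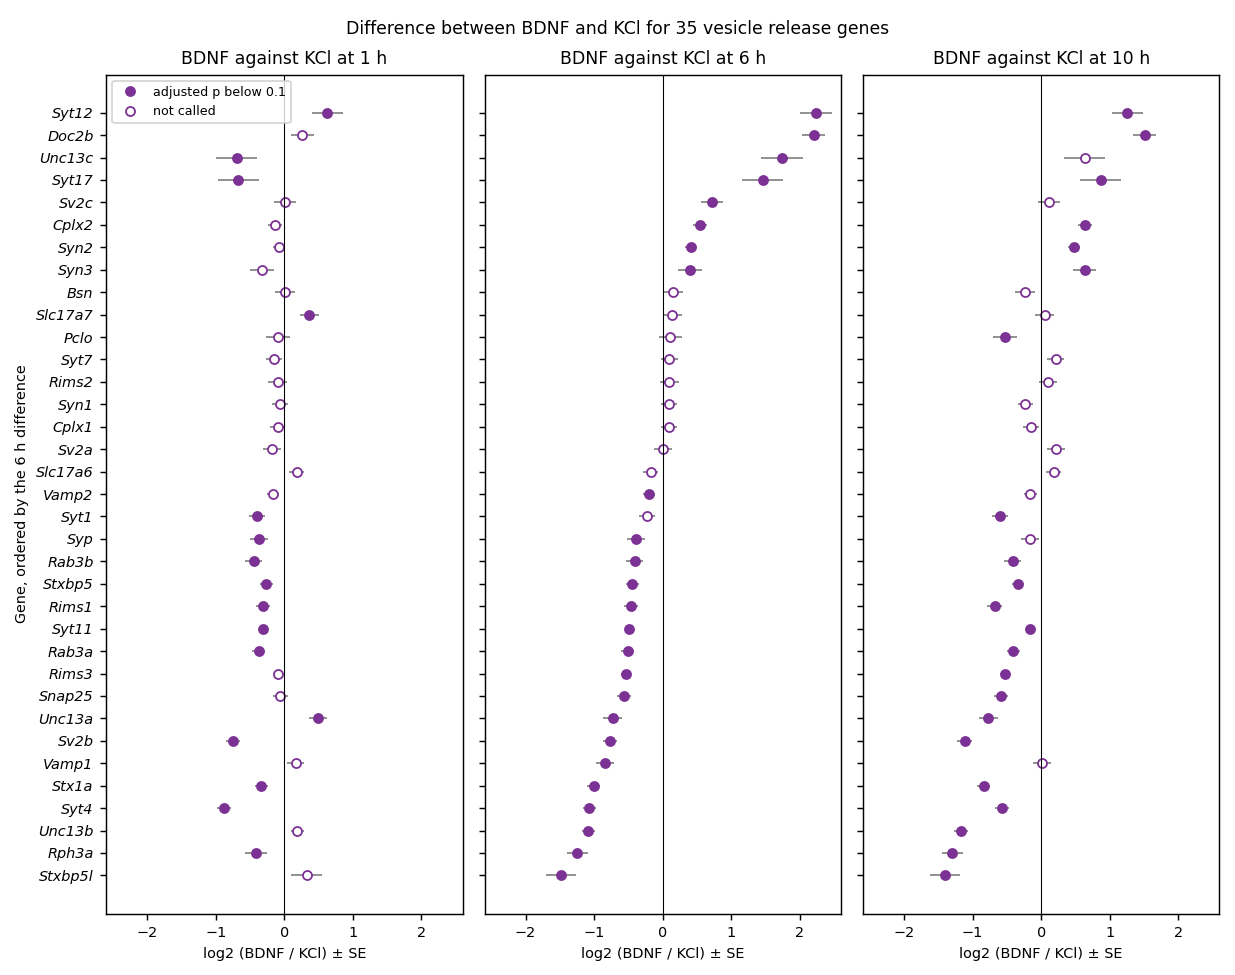
Log2 difference between BDNF and KCl libraries (x axis, with standard errors) for the 35 genes (rows, ordered by the 6 h difference) at 1 h, 6 h and 10 h, with filled points for an adjusted p under 0.1. Points to the right are higher with BDNF. At 6 h, 8 filled points lie to the right and 17 to the left, with Syt12 and Doc2b beyond 2 on the right.

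Times were also compared within each stimulus. Between 1 h and 6 h of KCl, 8 genes rose and 13 fell (all genes, 30.9% of all genes tested higher and 28.7% lower), and between 6 h and 10 h, 6 rose and 3 fell (all genes, 12.9% of all genes tested higher and 9.66% lower). The count of 9 in the latter was 14 without KCl 6 h library A, 2 without KCl 6 h library B and 3 without KCl 10 h library A. Between 1 h and 6 h of BDNF, 5 genes rose and 10 fell (all genes, 15.8% of all genes tested higher and 17.7% lower), and between 6 h and 10 h none rose and 1 fell (all genes, 0.074% of all genes tested higher and 0.142% lower), namely Sv2c (-0.77 (adjusted p = 0.0775)). That call was not retained without any 1 of the 4 libraries compared. The largest shifts from 1 h to 6 h were in Unc13c (-2.28 (SE 0.30, adjusted p = 1.88e-06)), Syn3 (-1.68 (SE 0.17, adjusted p = 8.64e-08)) and Doc2b (-1.42 (SE 0.17, adjusted p = 4.47e-07)) for KCl, and in Sv2c (1.62 (SE 0.16, adjusted p = 1.39e-07)), Rph3a (-1.26 (SE 0.16, adjusted p = 8.56e-06)) and Syt12 (1.03 (SE 0.23, adjusted p = 0.00192)) for BDNF. The controls differed from 1 h to 6 h and from 1 h to 10 h in none of the 35 genes, and in 0% of all genes in either direction of either comparison by limma, edgeR and DESeq2. At an unadjusted p under 0.05, limma counted 164 genes, 1 of them among the 35, at 6 h and 181 genes, 1 among the 35, at 10 h, edgeR counted 233 and 197, and DESeq2 56 and 39.

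**Figure D4:**
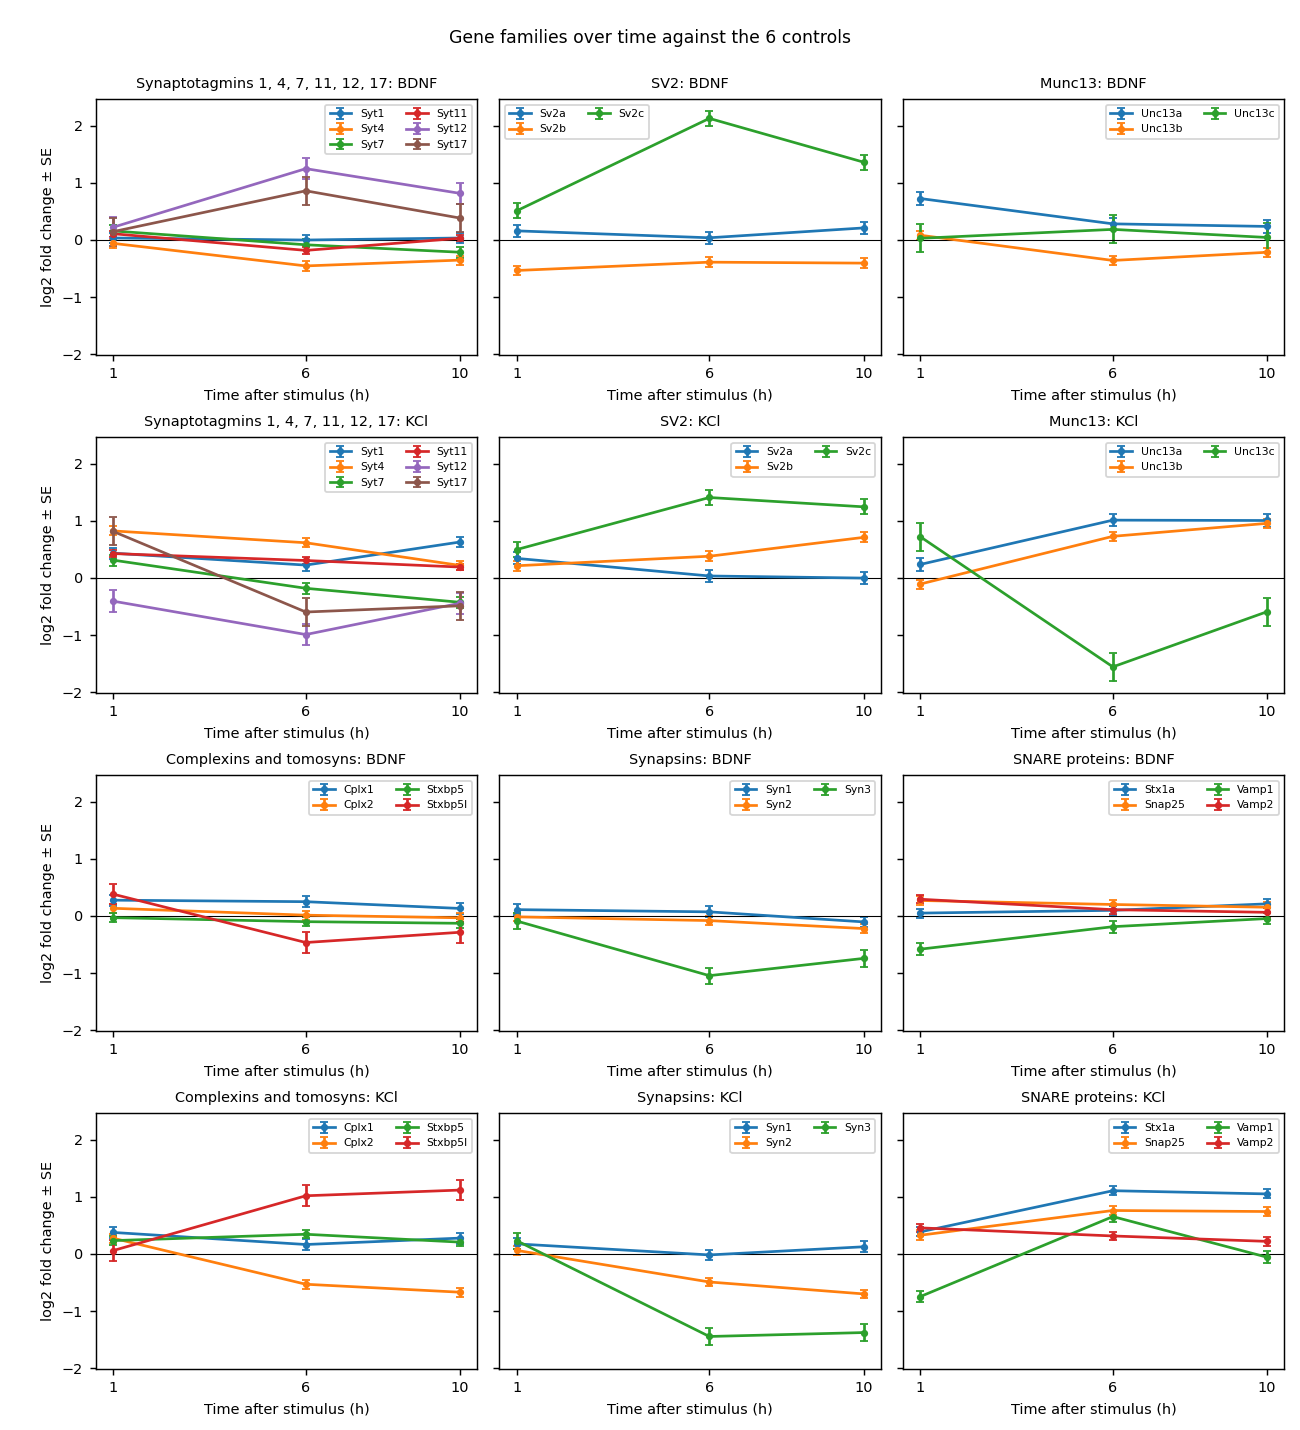
Log2 fold change against the 6 controls (y axis, with standard errors) at 1 h, 6 h and 10 h (x axis) for members of 6 groups of vesicle release genes, with separate panels for BDNF and KCl. Lines within a group part from each other: Sv2c and Sv2b with BDNF at 6 h (2.13 and -0.39), Unc13a and Unc13c with KCl at 6 h (1.01 and -1.56), and Stxbp5l and Cplx2 with KCl at 10 h (1.12 and -0.67).

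Levels of different genes were compared per kilobase of exonic length. In the controls the mean normalised read count per kilobase (SD, n = 6) was 2030.0 ± 86.3 for Syt11, 1766 ± 142 for Syt4 and 1351 ± 110.4 for Vamp2, the 3 highest. Neighbours in this order lay further apart than their SDs added. The level was 2.92 ± 0.534 for Unc13c, 4.87 ± 1.16 for Syt17, 4.88 ± 0.381 for Syt12, 8.35 ± 1.80 for Stxbp5l and 13.1 ± 1.94 for Sv2c, the 5 lowest. Syt17 and Syt12 did not differ beyond their spread. For the SNARE genes the order ran from Vamp2 over Stx1a (401 ± 35.96) and Snap25 (315 ± 31.1) to Vamp1 (16.9 ± 1.15), for the Munc13 genes from Unc13a (203 ± 14.4) over Unc13b (32.99 ± 2.01) to Unc13c, and for the SV2 genes from Sv2a (755 ± 92.9) over Sv2b (99.9 ± 7.34) to Sv2c. In the Munc13 and SV2 families the gene of lowest level had the largest single response on the log2 scale. These were a fall of 1.56 for Unc13c at 6 h of KCl and a rise of 2.13 for Sv2c at 6 h of BDNF. Unc13c then had only 10.8 and 5.79 normalised reads. The SNARE genes went the other way, with 1.11 for Stx1a at 6 h of KCl and at most a fall of 0.75 for Vamp1, the lowest. Exonic lengths came from a later annotation release than the one the authors used, which affects these levels and no fold change.

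Other genes of the same pathway were described from 4 lists with 106 genes tested of 112 listed. With BDNF 28 were higher and 13 lower at 1 h (26.4% and 12.3%, beside 21.3% and 19% of all genes), 33 and 23 at 6 h (31.1% and 21.7%, beside 22.1% and 21.1%), and 38 and 16 at 10 h (35.8% and 15.1%, beside 21.1% and 19.5%). With KCl 56 were higher and 14 lower at 1 h (52.8% and 13.2%, beside 26.5% and 28.2% of all genes), 49 and 24 at 6 h (46.2% and 22.6%, beside 33.4% and 33.1%), and 50 and 17 at 10 h (47.2% and 16.04%, beside 29% and 28.2%). Of 16 subunits of the vesicle proton pump, which acidifies vesicles for transmitter uptake, 12, 14 and 10 (75%, 87.5% and 62.5%) were higher and 0, 2 and 1 lower at 1 h, 6 h and 10 h of KCl, and 5, 10 and 10 (31.3%, 62.5% and 62.5%) were higher and 0, 0 and 1 lower with BDNF. Their median log2 fold change was 0.40 at 6 h of KCl and 0.26 at 6 h of BDNF. Of 15 other active zone scaffold genes, 9 (60%) were higher and 0 lower at 1 h of KCl, with a median of 0.39, and 3 (20.0%) higher and 4 (26.7%) lower at 1 h of BDNF. Of 32 vesicle recycling genes, 14 (43.8%) were higher and 5 (15.6%) lower at 1 h of KCl and 12 (37.5%) higher and 3 (9.38%) lower at 1 h of BDNF. Of 43 other docking and fusion genes tested, 21 (48.8%) were higher and 9 (20.9%) lower at 1 h of KCl, and 14 (32.6%) higher and 15 (34.9%) lower at 6 h, the latter shares being near those of all genes.

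ATAC-seq measures how open chromatin is by the reads that a transposase places there. Peaks of the 35 genes were those overlapping a gene body or the 1000 bases upstream of any of its start sites, 130 peaks in 34 genes, of which 128 passed a mean of 10 reads. The 6 intronic peaks printed here were those among the 3 largest called rises in any of the 6 comparisons, and all of them held the AP-1 motif TGANTCA, the site of Fos and Jun proteins. Each line gives the 200 bases at the centre of the peak on the plus strand of GRCm38 (mm10), with every match to the motif in capitals.
Syt1 chr10:108929748-108929947: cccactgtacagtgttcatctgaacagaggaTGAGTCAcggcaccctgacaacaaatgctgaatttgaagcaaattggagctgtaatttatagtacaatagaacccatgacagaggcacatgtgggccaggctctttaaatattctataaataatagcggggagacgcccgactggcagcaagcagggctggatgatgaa
Sv2c chr13:96011364-96011563: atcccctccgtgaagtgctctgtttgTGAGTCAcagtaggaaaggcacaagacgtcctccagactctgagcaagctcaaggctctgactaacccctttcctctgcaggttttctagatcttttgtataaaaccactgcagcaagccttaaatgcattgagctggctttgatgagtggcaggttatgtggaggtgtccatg
Pclo chr5:14833279-14833478: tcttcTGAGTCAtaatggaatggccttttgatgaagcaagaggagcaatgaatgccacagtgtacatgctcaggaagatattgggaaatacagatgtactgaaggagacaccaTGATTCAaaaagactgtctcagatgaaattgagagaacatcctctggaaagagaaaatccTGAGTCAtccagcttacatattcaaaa
Syn1 chrX:20915171-20915370: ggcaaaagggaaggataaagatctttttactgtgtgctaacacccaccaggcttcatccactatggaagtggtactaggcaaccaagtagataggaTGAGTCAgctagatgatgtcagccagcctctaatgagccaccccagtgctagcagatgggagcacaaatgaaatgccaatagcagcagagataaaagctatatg
Unc13c chr9:73683745-73683944: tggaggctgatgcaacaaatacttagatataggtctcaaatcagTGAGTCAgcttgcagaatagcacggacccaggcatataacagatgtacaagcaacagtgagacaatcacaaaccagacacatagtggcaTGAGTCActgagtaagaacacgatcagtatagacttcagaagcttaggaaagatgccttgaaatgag
Sv2b chr7:75211575-75211774: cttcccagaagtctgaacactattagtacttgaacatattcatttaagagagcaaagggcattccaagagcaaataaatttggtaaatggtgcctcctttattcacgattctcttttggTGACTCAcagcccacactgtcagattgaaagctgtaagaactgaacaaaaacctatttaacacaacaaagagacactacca
The Pclo window held 3 matches, the Unc13c window 2 and the other windows 1 each. Among the 22 member peaks that were called higher in any of the 6 comparisons (adjusted p under 0.1, edgeR), 14 (63.6%) held the motif in the central 200 bases, as did 4 of the other 106 member peaks (3.77%). Of all peaks tested 7318 of 56383 (13.0%) held it, and of all peaks called higher 4766 of 10701 (44.5%). A match is a description of the sequence and not evidence of binding.

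At 1 h of BDNF, 17 of the 128 member peaks were higher and 6 lower (all peaks, 12.5% of all peaks tested higher and 4.78% lower). At 6 h, 10 were higher and 2 lower (8.88% of all peaks tested higher and 1.75% lower), and at 10 h, 8 were higher and 5 lower (7.45% of all peaks tested higher and 1.9% lower). With KCl, 7 were higher and 5 lower at 1 h (5.3% of all peaks tested higher and 3.05% lower), 4 and 4 at 6 h (5.45% of all peaks tested higher and 2.06% lower), and 8 and 2 at 10 h (5.91% of all peaks tested higher and 1.96% lower). TMM scaling moved the split to 16 higher and 3 lower peaks for BDNF 1 h, 10 and 4 for BDNF 6 h, 9 and 4 for KCl 6 h, and 11 and 5 for KCl 10 h. DESeq2 moved it to 15 and 3 for BDNF 1 h, 10 and 3 for BDNF 10 h, 5 and 3 for KCl 6 h, and 8 and 5 for KCl 10 h. The called peaks, 42 in any comparison, lay in 17 of the genes. Called higher in any comparison were 22 of the 128 member peaks, beside 10701 of the 56383 peaks tested. A matching count over all peaks for both directions together was not made. Leaving out 1 library changed these counts. Without library A or B of the stimulated group they became 15 and 13 of 23 at 1 h of BDNF, 7 and 7 of 12 at 6 h of BDNF, 5 and 8 of 13 at 10 h of BDNF, 6 and 6 of 12 at 1 h of KCl, and 1 and 4 of 10 at 10 h of KCl, where leaving out control 6 h library A gave 6. Without KCl 6 h library A the 6 h count was 1 of 8.

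The Syt1 peak (chr10:108929686-108930008), 81.1 kb inside the gene, had LOESS-scaled read counts of 1.98, 4.53 and 8.81 in the lowest, median and highest control, 49.7 and 48.99 after 1 h, 30.6 and 26.5 after 6 h, and 7.89 and 23.7 after 10 h of BDNF, and 23.3 and 17.03 after 1 h, 21.8 and 5.05 after 6 h, and 11.2 and 14.3 after 10 h of KCl. Both libraries at 1 h of either stimulus exceeded every control. The log2 differences were 3.37 (SE 0.40, adjusted p = 8.46e-12) with BDNF and 2.06 (SE 0.45, adjusted p = 0.00152) with KCl, while Syt1 RNA differed by 0.034 and 0.43. The Sv2c peak (chr13:96011265-96011662), 121 kb inside, had 4.14, 7.99 and 13.2 in the lowest, median and highest control, 66.6 and 80.4 after 1 h, 27.97 and 36.8 after 6 h, and 44.9 and 11.9 after 10 h of BDNF, and 8.59 and 6.13 after 1 h, 26.6 and 2.55 after 6 h, and 14.4 and 12.5 after 10 h of KCl. It was above all controls at 1 h of BDNF, with a difference of 3.13 (SE 0.36, adjusted p = 7.72e-13), and overlapped them at 1 h of KCl, -0.20 (adjusted p = 0.869). The promoter peaks of Sv2c and Syt1 were singled out after their values were seen. That of Sv2c (chr13:96132339-96133085) had 53.6, 73.4 and 88.02 in the controls, 181 and 161 at 1 h and 53.5 and 70.2 at 6 h of BDNF, and 103 and 88.05 at 1 h of KCl. It too was above all controls at 1 h of BDNF (1.26 (SE 0.18, adjusted p = 4.98e-09)), 5 h before the highest Sv2c RNA value. At 6 h the difference was -0.19 (adjusted p = 0.727), with 1 library just below the lowest control. The libraries at 1 h of KCl also exceeded the highest control, the lower of them barely.

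Other peaks opened late or with both stimuli. The Unc13c peak (chr9:73683703-73683985), 285 kb inside, had 2.55, 7.97 and 8.78 in the lowest, median and highest control, 37.3 and 30.97 after 1 h, 32.7 and 17.5 after 6 h, and 49.5 and 30.9 after 10 h of BDNF, and 11.2 and 6.73 after 1 h, 30.4 and 35.6 after 6 h, and 47.1 and 21.2 after 10 h of KCl. All libraries other than those at 1 h of KCl exceeded the controls. The differences were 2.53 (SE 0.41, adjusted p = 9.67e-07) at 10 h of BDNF and 2.23 (SE 0.43, adjusted p = 0.000149) at 6 h of KCl, the time at which Unc13c RNA was lowest. The Pclo peak (chr5:14833277-14833479), 318 kb inside, had 1.07, 3.80 and 7.85 in the lowest, median and highest control, 29.01 and 19.3 after 1 h, 24.6 and 17.3 after 6 h, and 20.4 and 12.4 after 10 h of BDNF, and 11.2 and 7.63 after 1 h, 10.9 and 5.16 after 6 h, and 12.6 and 16.02 after 10 h of KCl. All 6 BDNF libraries lay above the controls, with 2.58 (SE 0.49, adjusted p = 1.17e-05) at 1 h and 2.37 (SE 0.50, adjusted p = 0.000136) at 6 h, and of the KCl libraries 1 at 1 h and 1 at 6 h lay within their range. The KCl 10 h call (1.84 (adjusted p = 0.0239)) was not retained without library A (1.98, adjusted p = 0.109) or B (1.64, adjusted p = 0.249) of that group or against controls of the same time (1.81, adjusted p = 0.206). The Syn1 peak (chrX:20915176-20915364), 5.73 kb inside, had 1.28, 3.84 and 10.7 in the lowest, median and highest control, 22.3 and 19.4 after 1 h, 24.5 and 27.0 after 6 h, and 7.49 and 14.9 after 10 h of BDNF, and 20.7 and 7.55 after 1 h, 13.2 and 5.08 after 6 h, and 19.6 and 21.7 after 10 h of KCl. The difference was 2.52 (SE 0.47, adjusted p = 1.31e-05) at 6 h of BDNF, 1.60 (adjusted p = 0.0471) at 1 h of KCl and 2.20 (adjusted p = 0.00151) at 10 h of KCl, although Syn1 RNA was never called. The KCl 1 h call was not retained without KCl 1 h library A (0.74, adjusted p = 0.694), nor the KCl 10 h call against controls of the same time (1.66, adjusted p = 0.173). The Sv2b peak (chr7:75211481-75211867), 97.6 kb inside, had 8.07, 13.2 and 22.1 in the controls, 57.98 and 37.7 after 1 h, 35.02 and 45.5 after 6 h, and 16.2 and 41.1 after 10 h of BDNF and 33.2 and 35.5 after 1 h, 31.4 and 43.6 after 6 h, and 14.6 and 10.7 after 10 h of KCl. It was higher at 1 h with both stimuli, 1.75 (adjusted p = 9.27e-06) with BDNF and 1.29 (adjusted p = 0.0101) with KCl, the latter not retained without KCl 1 h library B (1.25, adjusted p = 0.149), while Sv2b RNA was lower with BDNF and higher with KCl.

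**Figure D5:**
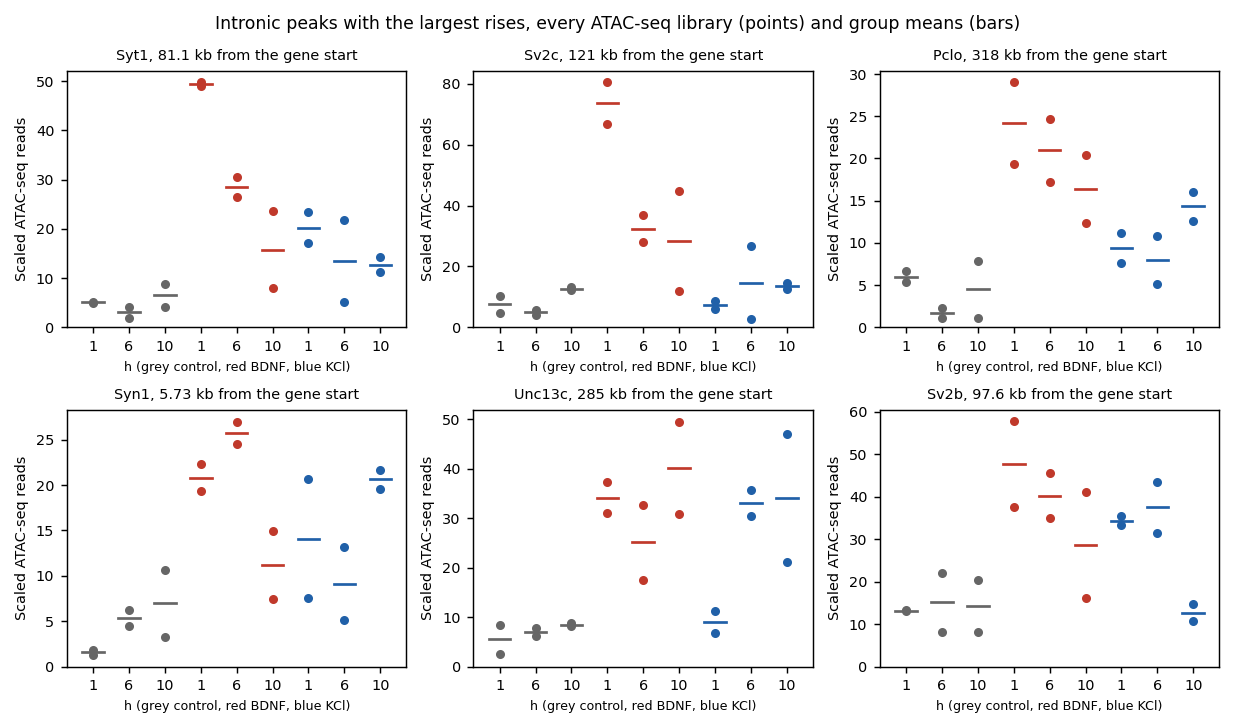
LOESS-scaled ATAC-seq reads (y axis, from 0) of 6 intronic peaks of vesicle release genes in every library (points) with group means (bars), by hours and with controls in grey, BDNF in red and KCl in blue, each titled with its distance from the gene start. The Syt1 and Sv2c peaks are highest at 1 h of BDNF, the Unc13c peak is near control level at 1 h of KCl and high at 6 h and 10 h, and the libraries of a group differ widely in several panels.

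Of the 128 member peaks, 43 lay at promoters. At 1 h of BDNF 1 of them was higher (2.33%, beside 12.5% of all peaks tested) and 4 were lower (9.30%, beside 4.78%). At 6 h of BDNF none was called by edgeR (8.88% of all peaks were higher and 1.75% lower), while 4 had an unadjusted p under 0.05, and at 10 h none was higher and 1 lower (2.33%, beside 1.9%). At 1 h of KCl 2 were higher (4.65%, beside 5.3%) and 2 lower (4.65%, beside 3.05%), at 6 h 1 was higher and 1 lower, and at 10 h none was higher and 1 lower. The shares of all peaks include peaks outside promoters, and the share among promoter peaks of all genes was not counted. These counts therefore do not set the promoters of vesicle release genes apart from other promoters. The study reports that early accessibility changes lay in promoters less often with BDNF than with KCl. Promoter peaks were not tested against other peaks. The Syt1 promoter peak (chr10:109010437-109011355) had 162, 178 and 195 reads in the lowest, median and highest control, 208 and 197 at 1 h of BDNF and 283 and 288 at 1 h of KCl. The KCl pair lay above all controls, with 0.68 (SE 0.11, adjusted p = 1.92e-05). This call and those of the Sv2c promoter and the Sv2b peak at 1 h of BDNF held in all 22 alternatives. In the RefSeq promoter table (GRCm38, 250 bases before to 50 after a start, 32851 promoters of 27025 genes), 26 of the 35 symbols were matched. Each of 3 motifs searched on both strands was found in 1 of these 26 genes. The EGR motif GCGTGGGCG, held by 0.707% of all genes there, was in the promoter of Unc13a, the gene with the largest rise at 1 h of BDNF. The AP-1 motif, held by 8.97% of all genes, was in that of Rph3a, the gene with the largest fall after BDNF. The cAMP response element TGACGTCA, held by 2.03%, was in that of Syn1, which was called in no comparison with controls. Whether the motifs bear on the RNA values of these genes was not tested. The 250 bases before the start of the first and the last of these genes are shown in the direction of transcription, the match in capitals, at positions -25 to -17 from the start in Unc13a (where the letters are those of the opposite strand) and -159 to -152 in Syn1.
Unc13a promoter: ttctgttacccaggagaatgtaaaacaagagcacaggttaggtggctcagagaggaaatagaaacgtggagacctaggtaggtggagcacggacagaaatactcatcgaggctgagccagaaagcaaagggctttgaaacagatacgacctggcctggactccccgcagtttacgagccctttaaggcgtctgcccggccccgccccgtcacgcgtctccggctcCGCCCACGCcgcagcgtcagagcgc
Syn1 promoter: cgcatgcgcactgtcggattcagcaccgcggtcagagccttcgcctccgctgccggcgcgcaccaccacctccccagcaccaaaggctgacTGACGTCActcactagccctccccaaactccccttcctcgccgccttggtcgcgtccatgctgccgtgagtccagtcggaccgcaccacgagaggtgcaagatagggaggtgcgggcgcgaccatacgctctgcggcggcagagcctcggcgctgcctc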

How the data were processed

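RNA-seq and ATAC-seq were taken from the same 9 groups, 18 libraries each. Per the labels and methods, the authors trimmed reads with Trimmomatic, aligned RNA-seq with TopHat2 and ATAC-seq with Bowtie2 to mm10, called peaks with MACS2 and merged them with DiffBind. RNA was prepared with oligo-dT beads and a NEBNext Ultra II kit, and neither the read counter nor its strand setting is named in the sources at hand. As deposited, RNA values were a signal, read counts divided by DESeq2 size factors, and 100% of them came out as whole reads within 0.01. The deposited ATAC-seq table held raw counts.

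RNA was tested with limma 3.58.1 on log2 of the deposited value plus 1 (eBayes with trend and robust, R 4.3.3), with 7 levels, the 6 controls forming 1, on genes with a mean of at least 10. ATAC-seq counts were tested with edgeR 4.0.16 (quasi-likelihood, LOESS offsets with a span of 0.3) on peaks with a mean of at least 10. The log2 fold changes and p-values that the authors deposited for their own comparisons were not used. Tests were two-sided with Benjamini-Hochberg adjustment over all features, called under 0.1, and were tested on simulated data. Values in every library are given for genes among the 3 largest called rises or falls in a comparison with controls whose 2 libraries lay on 1 side of all controls, and for peaks among the 3 largest rises. The 35 genes and the lists were chosen with earlier results of these data known. Alternatives were edgeR and DESeq2 1.42.0 on recovered reads, TMM scaling, pseudocounts of 0.5 and 10, no filter, controls of the same time, a replicate block and leaving out each library. Exonic lengths came from GENCODE M21 on GRCm38, and sequences from RefSeq GRCm38.p6.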

Additional observations from a re-analysis of the deposited data

Results flagged for a closer look

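Among the 6 controls, 1 library stood apart for 3 of the 35 genes by Dixon's test, which chance gives in about 1 of 20 groups. Stxbp5 was 773 in control 10 h library A beside 898 to 962 in the other controls, Rims3 was 1242 in control 6 h library A beside 1160 to 1189.6, and Sv2c was 90.6 in control 1 h library A beside 126 to 145.

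The effect of a stimulus differed between times, by the direct test within the stimulus, in 15 genes between 1 h and 6 h and 1 gene between 6 h and 10 h of BDNF, and in 21 and 9 genes for KCl. Of all genes tested, 15.8% were higher and 17.7% lower at 6 h than at 1 h of BDNF, and 0.074% and 0.142% at 10 h than at 6 h. For KCl the shares were 30.9% and 28.7%, and 12.9% and 9.66%. The sign turned in 4 genes from 1 h to 6 h of KCl, with both libraries on opposite sides of all controls other than 1 of the Syt17 libraries at 6 h (18.5, beside a lowest control of 14.4). The difference between the times was -0.81 for Cplx2, -1.41 for Syt17, -2.28 for Unc13c and 1.40 for Vamp1 on the log2 scale. From 1 h to 10 h of KCl the sign also turned for Cplx2 (-0.95), Syt7 (-0.74) and Unc13c (-1.31), a difference that was not tested. How many of all genes turned sign in these ways was not counted. As given above, the KCl 1 h call of Unc13c was lost without KCl 1 h library A (0.70, adjusted p = 0.109) and the KCl 6 h call of Syt17 without KCl 6 h library A (-0.39, adjusted p = 0.303).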

How the results depend on the processing

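No direction of a named gene reversed under any alternative. Counts of called genes that moved by over 1.5 times did so as follows. At an adjusted p under 0.01 they were 7 at 1 h and 10 at 10 h of BDNF, 14 at 1 h of KCl, 7 for BDNF against KCl at 1 h, 0 between 6 h and 10 h of BDNF and 2 between 6 h and 10 h of KCl. Against controls of the same time they were 6 at 1 h of BDNF and 15 at 1 h of KCl, and with no filter 0 between 6 h and 10 h of BDNF. Leaving out 1 library gave 6 to 13 genes at 1 h of BDNF, 11 to 20 at 10 h of BDNF, 14 to 27 at 1 h of KCl, 9 to 12 for BDNF against KCl at 1 h, 0 to 0 between 6 h and 10 h of BDNF and 2 to 14 between 6 h and 10 h of KCl. A stricter threshold gives fewer calls by construction. Leaving out 1 of 2 stimulated libraries, or using only controls of the same time, widens the standard error by design. Calls can thus be lost at an unchanged fold change. Cplx1 at 1 h of BDNF was 0.28 with both libraries, 0.28 without A and 0.28 without B, and its call was lost. Leaving out a library both lowered and raised counts, and what else contributed to those changes was not tested.

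Counts of called peaks were 12, 4, 3, 1 and 3 at an adjusted p under 0.01 (BDNF 1 h and 10 h, KCl 1 h, 6 h and 10 h). With promoter peaks alone the BDNF counts were 5, 0 and 1 and the KCl counts 4, 2 and 1, by time. TMM scaling gave 13 at 6 h and 16 at 10 h of KCl, and controls of the same time gave 7 at 10 h of BDNF and 2 at 10 h of KCl. Leaving out 1 library gave 13 to 23 peaks at 1 h, 7 to 13 at 6 h and 5 to 14 at 10 h of BDNF, and 6 to 13, 1 to 11 and 1 to 10 at the same times of KCl. Of 34 named peak calls, 9 held under every alternative.

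The column letters A and B could not be matched to the replicate numbers of the labels. Deviations of same-letter libraries from their group means correlated at -0.31 to 0.42 (median 0.065, 36 pairs of groups), so the letters were not taken as pairs. With a replicate block on the letter, 11, 21 and 19 genes were called in BDNF libraries and 26, 28 and 27 in KCl libraries, by time, 16, 26 and 23 for BDNF against KCl, and 16, 1, 22 and 10 between times.

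With 2 libraries per stimulated group, the spread is estimated mainly across groups. The genes of low level (Unc13c, Syt17 and Syt12, under 32.5 normalised reads in every control) and peaks with few control reads have wide errors, and a difference that missed the threshold there is not shown to be absent. Shared exonic bases with opposite-strand genes limit Syn3, Unc13a, Syp and Syt12.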

Other observations

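Vesicle release genes shifted together between the libraries of some groups. In KCl 6 h, library A exceeded library B for 29 of the 35 genes, with a median log2 ratio of 0.25 beside -0.0031 over all genes tested, of which 49.6% were higher in A. Library A was also above B for 29 of the 35 genes in KCl 1 h and in KCl 10 h. The medians there were 0.080 and 0.14, beside 53.7% and 53.1% of all genes above B. In control 6 h library A was above B for 32, with a median of 0.17, beside 55.6% of all genes. In control 10 h it was above B for 4 of 35, with a median of -0.17, beside 47.3% of all genes. In control 1 h it was above B for 26 of 35 (53.4% of all genes). The BDNF counts were 12 at 1 h (47.9%), 21 at 6 h (52.2%) and 25 at 10 h (50.6%), with medians of -0.048, 0.027 and 0.071.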
